A study of Mus musculus with 6 samples.

Results

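The Bcl2 family, the survival and death genes of the mitochondrial apoptosis pathway, was followed through RNA sequencing of naïve CD4 T cells with and without the cap methyltransferase gene Rnmt. Its members were 10 genes taken by symbol, namely Bcl2, Bcl2l1 and Mcl1 (survival), Bax and Bak1 (effectors) and Bcl2l11, Bbc3, Bid, Bad and Pmaip1 (BH3-only), out of 46983 genes in the count tables. All 10 were among the 12336 genes that were tested, which had more than 1 CPM (counts scaled to the library's total) in 3 or more libraries. The CPM values given from here on were scaled further by TMM, edgeR's trimmed mean factor for each library. The symbols of 9 members were in the authors' table of 11221 genes, and Pmaip1 was found through the GENCODE symbol of its identifier.

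Total RNA depleted of rRNA was sequenced in 6 libraries, 3 from control mice and 3 from Rnmt cKO mice, all labelled male and C57B6/J. Cells were sorted from lymph nodes as TCRb+ CD4+ CD62L+ CD44- DAPI- cells. Controls were Rnmt fl/fl, CD4cre -, and Rnmt cKO mice were Rnmt fl/fl, CD4cre +, so both groups carried the floxed alleles and the Cre transgene and the loss of Rnmt cannot be told apart. The transgene is driven by Cd4 regulatory sequence, so deletion starts in the thymus, before the cells sequenced here were formed. No source used here says whether cells of several mice were pooled, so the p-values measure the spread between these samples. Libraries held between 8873413 and 11277764 counts on the sense strand of genes. Between 31.8% and 47.9% of unique reads were assigned to no gene by the sense-strand count, without a split between the groups.

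Rnmt itself, the targeted gene, had a mean of 55.9 CPM (SD 3.93, n = 3) in control and of 35.3 CPM (SD 7.87, n = 3) in Rnmt cKO cells, and all 3 Rnmt cKO libraries lay below all controls (log2 fold change of Rnmt cKO over control -0.67, edgeR exact test, adjusted p = 0.000350). The deletion removes 1 exon, so counts over the whole gene need not fall to 0. Naïve CD4 T cell markers were abundant, with a summed level of 4572 to 4945 CPM in controls and 5210 to 5919 CPM in Rnmt cKO libraries; of the 8 genes, 2 were called higher and 1 lower. Markers of proliferation and of other cell types differed as well. The 8 proliferation markers summed to 37.6 to 47.5 CPM in controls and 273 to 309 CPM in Rnmt cKO libraries, and all 8 were called higher. Of these, Ccnb2, Cdk1 and Birc5 each had 1 control library over 1 CPM and so passed the filter through the Rnmt cKO libraries. The 7 B cell markers (5 called higher) summed to 42.0 to 48.8 CPM and 54.2 to 93.7 CPM. The 8 myeloid markers summed to 5.78 to 7.50 CPM and 14.2 to 36.9 CPM, and 3 of the 5 tested were called higher. These were Lyz2, and S100a8 and S100a9, which passed the filter only through the Rnmt cKO libraries. Cd14 was not tested and was at 0 in every control. The 2 CD8 T cell markers, both called lower, summed to 21.6 to 23.2 CPM and 13.5 to 17.3 CPM. Thymocyte markers summed to 9.59 to 12.6 CPM and 9.18 to 10.6 CPM with Ptcra at 0 throughout, and memory markers (1 called higher, 1 lower of 2 tested) to 119 to 130 CPM and 114 to 141 CPM. The part of these markers' cells, and of cycling cells of any type, in the results that follow was not tested.

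Bcl2 family proteins decide at the mitochondrial outer membrane whether a cell lives or dies. BCL2, BCL-XL and MCL1 hold the effectors BAX and BAK in check, BH3-only proteins such as BIM and PUMA bind the survival proteins and release or activate the effectors, and the effectors then open the membrane and let cytochrome c out to activate caspases. Resting T cells depend on BCL2 and MCL1, which interleukin-7 signalling maintains, and on the balance between BCL2 and BIM.

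The stretches of 250 bases before the annotated start are shown for the survival genes Bcl2 and Mcl1, the effector gene Bax and the BH3-only gene Bcl2l11, because the first 3 rose in Rnmt cKO cells and Bcl2l11 did not pass the test. They are RefSeq sequences of the GRCm38.p6 build at chr1:106714291-106714540 on the minus strand (Bcl2), chr3:95658471-95658720 on the plus strand (Mcl1), chr7:45466899-45467148 on the minus strand (Bax) and chr2:128125788-128126037 on the plus strand (Bcl2l11, the first of its RefSeq starts), and none holds a base of an annotated exon. Each is written 5′ to 3′ on the gene's own strand. Capitals mark matches, on either strand, to GGGCGG (GC box), CACGTG (E-box), GTAAACA (a FOXO site) or the p53 half-site.
Bcl2: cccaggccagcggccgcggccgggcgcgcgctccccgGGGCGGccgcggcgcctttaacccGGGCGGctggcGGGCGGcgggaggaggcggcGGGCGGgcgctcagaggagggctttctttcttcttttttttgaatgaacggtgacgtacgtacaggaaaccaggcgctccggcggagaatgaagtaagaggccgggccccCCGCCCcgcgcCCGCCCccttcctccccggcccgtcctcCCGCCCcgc
Mcl1: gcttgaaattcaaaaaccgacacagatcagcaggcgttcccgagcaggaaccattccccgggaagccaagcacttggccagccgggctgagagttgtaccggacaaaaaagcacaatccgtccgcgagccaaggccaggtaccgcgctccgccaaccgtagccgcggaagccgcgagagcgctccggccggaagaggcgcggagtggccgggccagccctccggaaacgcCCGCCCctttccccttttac
Bax: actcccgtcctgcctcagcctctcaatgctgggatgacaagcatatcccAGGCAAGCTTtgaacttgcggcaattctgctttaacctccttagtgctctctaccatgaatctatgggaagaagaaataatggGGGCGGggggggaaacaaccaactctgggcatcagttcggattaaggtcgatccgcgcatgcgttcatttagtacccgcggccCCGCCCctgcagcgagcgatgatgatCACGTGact
Bcl2l11: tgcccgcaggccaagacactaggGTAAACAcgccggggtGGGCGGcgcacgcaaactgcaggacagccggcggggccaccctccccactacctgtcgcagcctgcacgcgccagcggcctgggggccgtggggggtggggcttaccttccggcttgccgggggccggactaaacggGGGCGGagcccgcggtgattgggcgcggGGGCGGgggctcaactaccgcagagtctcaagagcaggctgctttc

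The Bcl2 stretch held 7 GC boxes and was 74.8% G and C, and that of Bcl2l11 held 3 GC boxes at 72% G and C. Mcl1 had 1 GC box 20 bases before its start at 64.4% G and C. Bax, at 54%, had 2 GC boxes, an E-box 9 bases before its start and a p53 half-site 201 bases before it. In Bcl2l11 the FOXO site lay 227 bases before the start. The stretch before a later RefSeq start of this gene, not shown, held 2 GC boxes and 0 FOXO sites. No match overlapped another. Bak1 and Pmaip1 were called higher too, but their stretches are not shown. All 250 bases of the Bak1 stretch lay in annotated exon, and it held 0 matches to any of these letters. Of 32851 stretches of this length before RefSeq starts, 32.7% held a GC box, 6.02% an E-box, 3.17% a FOXO site and 7.13% a p53 half-site. A match describes the letters and is not a site in use.

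In Rnmt cKO cells 5 of the 10 members were higher and none was lower: a pair of survival genes (Bcl2 and Mcl1), both effector genes (Bax and Bak1) and the BH3-only gene Pmaip1. The members' median log2 fold change was 0.36, against 0.01 over all genes tested. By the same test, an exact test from edgeR whose p-values were adjusted over all genes (Benjamini-Hochberg, threshold 0.05), 8.0% of all genes were called higher and 6.84% lower. Pmaip1 passed the filter on low counts only through the Rnmt cKO libraries, and without it 4 of 9 members were higher with a median of 0.28. When counts were scaled by library size alone, 78.4% of all calls were higher, against 53.9% as reported, the median over all genes shifted by 0.12, and 6 members were higher. Leaving out control library 3 left 3 members called higher, as did leaving out Rnmt cKO library 1 or Rnmt cKO library 2. Without either of these Rnmt cKO libraries Pmaip1 failed the filter and 9 members were tested. Over all genes, 667 of 12189, 668 of 12075 and 643 of 12101 were called higher in these 3 settings.

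**Figure D1:**
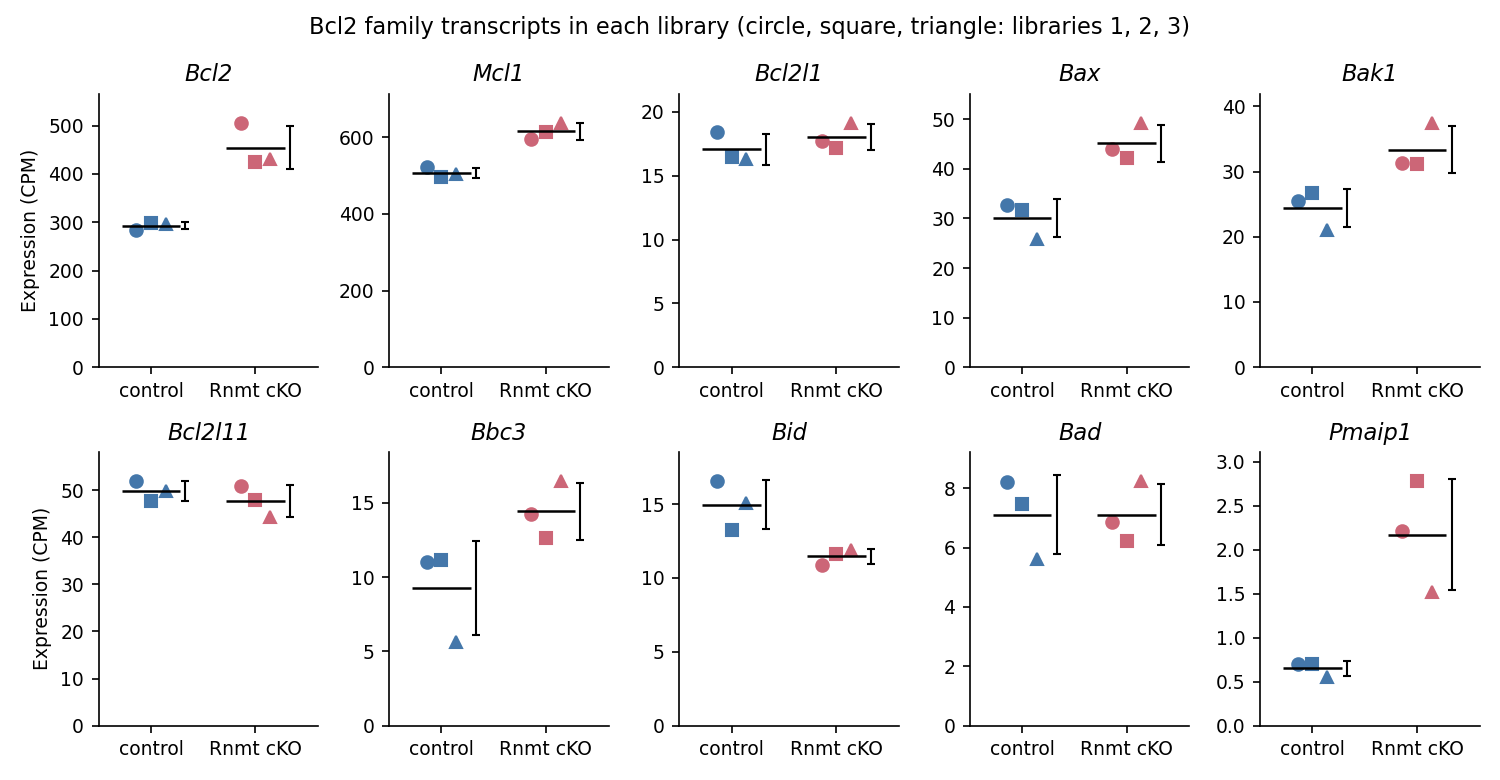
Expression of the 10 members in CPM (vertical axes, linear and starting at 0, with a scale of their own in each panel) in the 3 control libraries (blue) and 3 Rnmt cKO libraries (red). Circles, squares and triangles are libraries 1, 2 and 3 of a group, which are not paired; horizontal lines are means and the bars beside them SD. The groups do not overlap for Bcl2, Mcl1, Bax, Bak1, Bbc3 and Pmaip1 (Rnmt cKO higher) and for Bid (Rnmt cKO lower). For Pmaip1 this follows from the filter on low counts.

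Bcl2 (ENSMUSG00000057329, chromosome 1, 106538178 to 106714274, minus strand, mm10) encodes the survival protein that names the family. Its counts were 2428, 2989 and 2686 in control libraries 1 to 3 and 4795, 5050 and 4819 in Rnmt cKO libraries 1 to 3. Scaled, these were 285, 298 and 296 CPM in control and 506, 425 and 431 CPM in Rnmt cKO cells. The 3 controls lay close together, Rnmt cKO library 1 was the highest, and every Rnmt cKO library was above every control. The mean rose by 55.0%, a log2 fold change of 0.63 with a standard error (SE) of 0.08 (edgeR exact test, adjusted p = 7.32e-08). In bulk RNA, a larger share of cells with high Bcl2 and more Bcl2 RNA per cell cannot be told apart, here as for the other members. Bcl2 passed the threshold in all 16 alternative analyses, with log2 fold changes from 0.55 to 0.76.

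Mcl1 (ENSMUSG00000038612, chromosome 3, 95658788 to 95663176, plus strand), whose product is a survival protein with a very short life in the cell, was the most abundant member in CPM and per length. It was at 521, 497 and 504 CPM in control and 595, 614 and 638 CPM in Rnmt cKO cells. The groups did not overlap, and the gap between the highest control and the lowest Rnmt cKO library exceeded the range of the controls. The mean rose by 21.3% (log2 fold change 0.28, SE 0.04, edgeR exact test, adjusted p = 0.0272). This call was close to the threshold: the direction was the same in 16 of 16 alternatives but 8 of them missed the threshold, among them edgeR's quasi-likelihood test (adjusted p = 0.0579) and testing without a filter on low counts (adjusted p = 0.0711). It was also lost without control library 1 (adjusted p = 0.0791), control library 2 (0.194), control library 3 (0.119), Rnmt cKO library 1 (0.0706) or Rnmt cKO library 2 (0.133).

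Bcl2l1 (ENSMUSG00000007659, chromosome 2), the gene of BCL-XL, was a minor survival transcript, at 18.4, 16.4 and 16.3 CPM in control and 17.7, 17.2 and 19.1 CPM in Rnmt cKO cells. The groups overlapped, with Rnmt cKO libraries 1 and 2 inside the control range (log2 fold change 0.08, SE 0.07, edgeR exact test, adjusted p = 0.813).

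Both effector genes rose. Bax (ENSMUSG00000003873, chromosome 7, 45461697 to 45466898, minus strand) encodes a protein that moves from the cytosol to mitochondria and forms pores there. It had 279, 319 and 234 counts in control and 417, 501 and 551 counts in Rnmt cKO libraries, which is 32.7, 31.8 and 25.8 CPM and 44.0, 42.2 and 49.3 CPM. Control library 3 was the lowest and Rnmt cKO library 3 the highest, and the groups were apart with or without that pair. The mean rose by 50.0% (log2 fold change 0.58, SE 0.13, edgeR exact test, adjusted p = 0.000108), and Bax passed the threshold in all 16 alternatives.

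Bak1 (ENSMUSG00000057789, chromosome 17, 27019810 to 27029009, minus strand) encodes BAK, the effector that sits on the mitochondrial membrane. It was at 25.5, 26.7 and 21.1 CPM in control and 31.3, 31.2 and 37.5 CPM in Rnmt cKO cells. As for Bax, control library 3 was the lowest of all and Rnmt cKO library 3 the highest, and the groups did not overlap. The mean rose by 36.6% (log2 fold change 0.45, SE 0.14, edgeR exact test, adjusted p = 0.0114). The call held in 14 of 16 alternatives and was lost, among others, without control library 3 (log2 fold change 0.35, adjusted p = 0.109). Bak1 lies on the other strand within Ggnbp1. When reads of either strand were counted, reads that could belong to both genes were dropped and Bak1 kept 137, 155 and 107 counts in control and 190, 225 and 251 counts in Rnmt cKO libraries, again apart.

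Among the BH3-only genes the pattern was mixed. Bcl2l11 (ENSMUSG00000027381, chromosome 2, 128126038 to 128162547, plus strand) encodes BIM, which antagonises BCL2 in T cells. It had 442, 478 and 451 counts in control and 483, 568 and 494 counts in Rnmt cKO libraries, or 51.9, 47.6 and 49.7 CPM and 50.9, 47.8 and 44.2 CPM. The values of the 2 groups were interleaved except for Rnmt cKO library 3, the lowest. The log2 fold change was -0.06 (SE 0.07, edgeR exact test, adjusted p = 0.801), and its sign turned, to 0.06, when counts were scaled by library size alone.

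Pmaip1 (ENSMUSG00000024521), the gene of NOXA, a BH3-only protein that binds MCL1, was the rarest member. It had 6, 7 and 5 counts in control libraries and 21, 33 and 17 counts in Rnmt cKO libraries. These were 0.704, 0.697 and 0.551 CPM and 2.21, 2.78 and 1.52 CPM. Each Rnmt cKO library was above each control, with a log2 fold change of 1.72 (SE 0.25, edgeR exact test, adjusted p = 0.000858). Since a gene at this level could enter the test only where Rnmt cKO libraries were high, and under 10 reads stood behind each control value, its size is the least certain of the called members. It was called in 11 of the 11 alternatives that tested it. The stricter filters and the omission of any Rnmt cKO library could not test it, because it then failed the filter.

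Bbc3 (ENSMUSG00000002083, chromosome 7), the gene of PUMA, a target of p53 and FOXO factors, was at 11.0, 11.2 and 5.62 CPM in control and 14.2, 12.6 and 16.5 CPM in Rnmt cKO cells. Control library 3 lay well below the other controls, and all Rnmt cKO libraries lay above all controls. The log2 fold change of 0.64 had an SE of 0.34 and missed the threshold (edgeR exact test, adjusted p = 0.0607). Without control library 3 it was 0.38 (adjusted p = 0.267). It passed with library size scaling alone (adjusted p = 0.0115) and in a quasi-likelihood fit with the share of reads assigned to no gene as a covariate (adjusted p = 0.00975).

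Bid (ENSMUSG00000004446, chromosome 6), which links death receptors to mitochondria once caspase-8 cleaves its product, was the one member with all Rnmt cKO libraries below all controls, at 16.5, 13.2 and 15.1 CPM in control and 10.9, 11.6 and 11.9 CPM in Rnmt cKO cells. The log2 fold change was -0.38 (SE 0.10, edgeR exact test, adjusted p = 0.101), and it passed the threshold in 1 alternative, the fit with the covariate (adjusted p = 0.0439). Bad (ENSMUSG00000024959, chromosome 19), whose product binds BCL2 and BCL-XL under the control of growth factor kinases, was at 8.21, 7.47 and 5.62 CPM and 6.85, 6.23 and 8.23 CPM. Its groups overlapped over nearly their whole range (log2 fold change 0.0013, SE 0.20, edgeR exact test, adjusted p = 1).

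Across the family, the groups did not overlap for 7 of 10 members, 6 with Rnmt cKO higher and 1 lower. Pmaip1 is among the 6, and with 0 control libraries over 1 CPM it passed the filter only through the 3 Rnmt cKO libraries. Its separation thus followed from the filter and is no result of its own. Over all genes tested, 16.6% did not overlap with Rnmt cKO higher and 14.9% with Rnmt cKO lower.

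**Figure D2:**
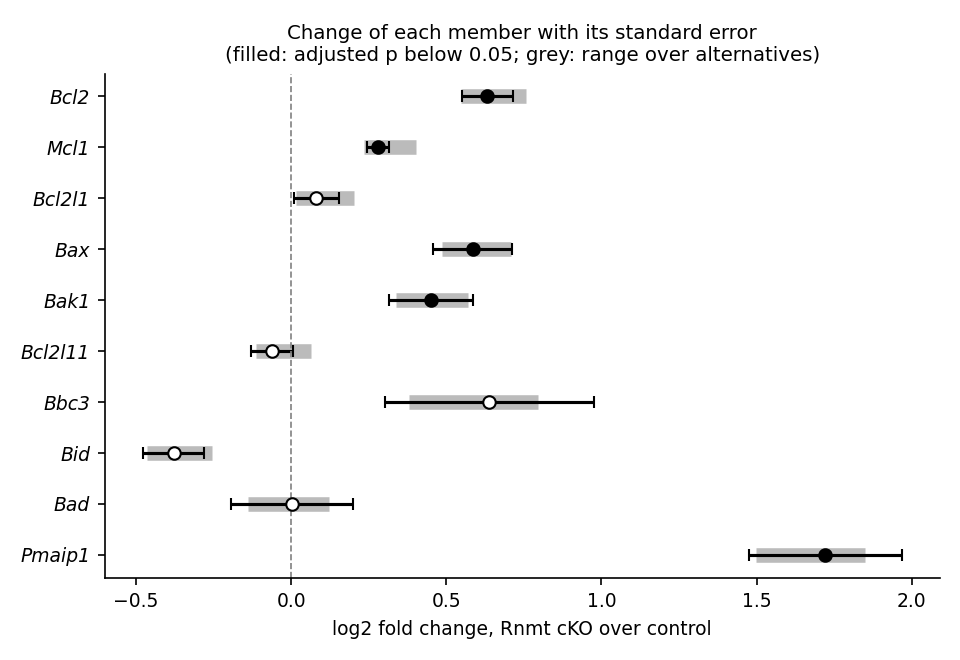
Log2 fold change of Rnmt cKO over control (horizontal axis) for each member (vertical axis), with bars for the SE from 3 libraries a group; filled points had an adjusted p below 0.05 in the edgeR exact test, and grey bands span the values over the alternative analyses. The bands of Bcl2, Mcl1, Bax, Bak1, Bbc3 and Pmaip1, and of Bcl2l1, which was not called in any alternative, lie above 0, that of Bid below 0, and those of Bcl2l11 and Bad cross it.

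Levels of different genes were compared per length, as the same TMM-scaled values per kilobase of exon (RPKM). In controls Mcl1 stood first at 148 ± 3.69 RPKM (mean ± SD, n = 3), followed by Bax at 34.7 ± 4.34 RPKM and Bcl2 at 32.0 ± 0.764 RPKM, whose ranges overlapped. Bak1 came next at 10.2 ± 1.24 RPKM. A group of 4 genes followed, Bcl2l11 at 7.21, Bid at 6.84, Bbc3 at 5.11 and Bcl2l1 at 4.39 RPKM, and in it each gene overlapped its neighbour in the order. Bad (2.97 RPKM) and Pmaip1 (0.238 RPKM) came last. In Rnmt cKO cells Mcl1 was at 180 ± 6.25, Bax at 52.1 ± 4.26 and Bcl2 at 49.6 ± 4.90 RPKM, and Bbc3 had a higher mean (7.96 RPKM) than Bcl2l11 (6.91 RPKM), with overlapping ranges, and than Bid (5.24 RPKM). Naïve T cells of both groups thus held far more transcript of MCL1 and BCL2 than of BCL-XL.

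Summed by role, the 3 survival genes were at 188, 182 and 184 RPKM in control and 234, 230 and 239 RPKM in Rnmt cKO libraries. The 2 effector genes were at 48.4, 47.8 and 38.6 RPKM and 63.8, 61.7 and 72.5 RPKM. Both sums were apart between the groups. The 5 BH3-only genes summed to 24.8, 22.5 and 19.8 RPKM in control and 23.9, 22.8 and 24.9 RPKM in Rnmt cKO libraries, which overlapped. As shares of the family's summed level, survival genes made up 73.4% ± 2.23 in control and 72.3% ± 1.14 in Rnmt cKO cells (SD, n = 3), with overlapping groups. The effector share went from 17.8% ± 1.64 to 20.3% ± 1.08 and the BH3-only share from 8.85% ± 0.673 to 7.36% ± 0.0986, each with groups that did not overlap. These sums rest largely on Mcl1 and Bax and were not tested.

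**Figure D3:**
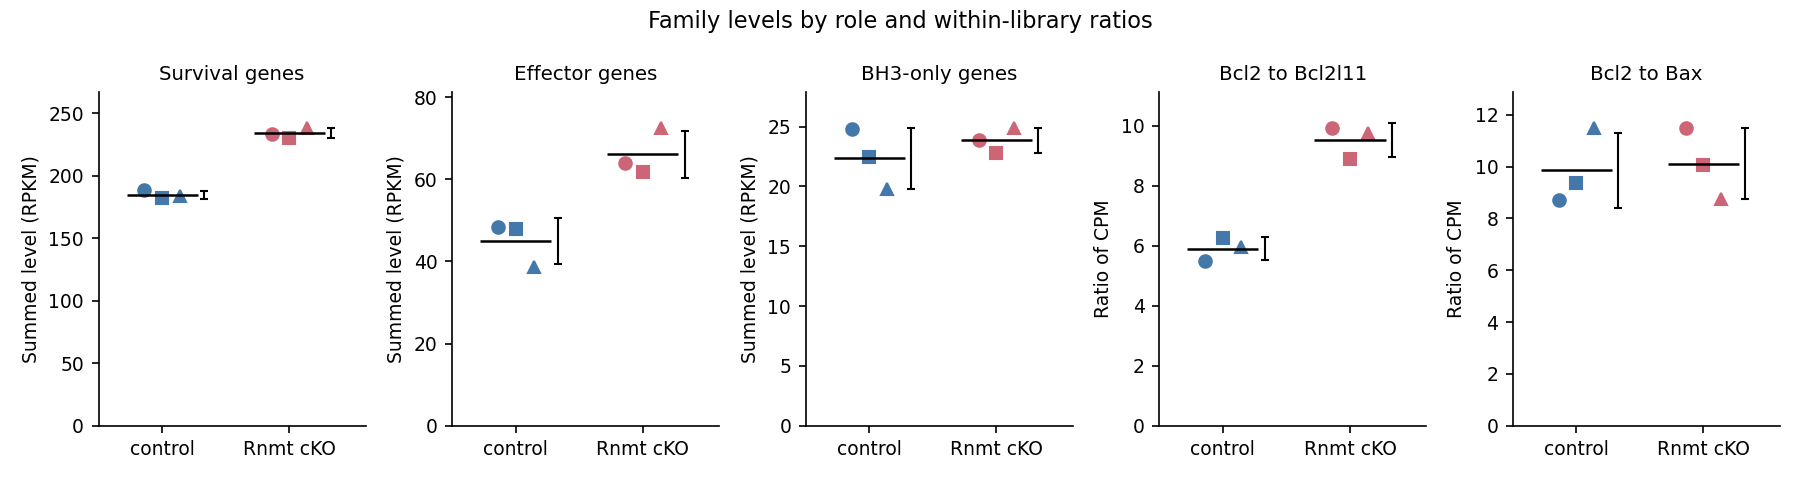
Summed level in RPKM of the survival, effector and BH3-only genes (left 3 panels) and the ratio of the CPM of Bcl2 to that of Bcl2l11 and of Bax (right 2 panels) in control (blue) and Rnmt cKO (red) libraries, on linear axes that start at 0. Points are single libraries, lines means and bars SD (n = 3); the groups are apart for survival genes, effector genes and the ratio of Bcl2 to Bcl2l11, and overlap in the other panels.

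The balance of Bcl2 and its antagonists was read within each library, where scaling between libraries has no part. The ratio of Bcl2 to Bcl2l11 CPM was 5.49, 6.25 and 5.96 in control and 9.93, 8.89 and 9.76 in Rnmt cKO libraries. Every Rnmt cKO library thus had more Bcl2 relative to Bcl2l11 than every control. The log2 ratio differed by 0.69 (SE 0.07), with an exact two-sided permutation p of 0.10, the smallest that 3 against 3 libraries allow. The ratio of Bcl2 to Bax was 8.70, 9.37 and 11.5 in control and 11.5, 10.1 and 8.75 in Rnmt cKO libraries. These values were interleaved (log2 difference 0.04, SE 0.17, exact two-sided permutation p = 0.70), and the sign turned without control library 1 (-0.05) or without Rnmt cKO library 1 (-0.06).

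Reads on the strand opposite to Bcl2 were counted as well, because the noncoding gene D630008O14Rik runs antisense within the Bcl2 locus. There were 4, 7 and 0 such counts in control and 24, 16 and 18 in Rnmt cKO libraries, under 1% of the Bcl2 reads in each. As a share of both strands they were 0.164%, 0.234% and 0% in control and 0.498%, 0.316% and 0.372% in Rnmt cKO libraries, a difference of 0.263 percentage points (SE 0.0878, exact two-sided permutation p = 0.10, the smallest possible). The groups were apart, but so were the medians of this share over all tested genes, at 0.279% to 0.361% in control and 0.410% to 0.478% in Rnmt cKO libraries, and the share at Mcl1, which went from 0.221% ± 0.0473 to 0.407% ± 0.0691 (SD, n = 3). D630008O14Rik had 2, 0 and 0 counts of its own in control and 0, 2 and 4 in Rnmt cKO libraries, too few to compare. At Bcl2l11 the order was the opposite, with 7, 5 and 2 other-strand counts in control and 1, 0 and 0 in Rnmt cKO libraries. The highest shares with more than a few reads were at Bid (19.2% ± 6.01 in control, 21.0% ± 6.50 in Rnmt cKO) and Bad (27.2% ± 3.37 and 23.6% ± 3.76), which overlap Bcl2l13 and Gpr137 on the other strand. When only reads assignable without strand were counted, Bcl2 had 2126, 2665 and 2413 counts in control and 4398, 4546 and 4313 in Rnmt cKO libraries, which is the same separation as on the sense strand.

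The 13 other genes of the family summed to 79.2 CPM in control and 67.2 CPM in Rnmt cKO cells (means of 3). The 10 members summed to 954 and 1249 CPM. Of the 13 other genes, 6 passed the filter, 0 were higher and 1 was lower, with a median log2 fold change of -0.0040. Bcl2l13, a mitochondrial relative, was at 53.5, 51.9 and 52.5 CPM in control and 39.9, 41.1 and 45.4 CPM in Rnmt cKO cells (log2 fold change -0.32, SE 0.06, edgeR exact test, adjusted p = 0.0174). The groups did not overlap, but the call was lost in 9 of 16 alternatives, including the omission of control library 1 (adjusted p = 0.0958), control library 2 (0.0849), control library 3 (0.0675), Rnmt cKO library 1 (0.123) or Rnmt cKO library 2 (0.116). Bcl2l12, the next by CPM, was at 15.2 ± 2.59 CPM and 12.8 ± 0.865 CPM and was not called (log2 fold change -0.25, edgeR exact test, adjusted p = 0.403). Per length it was above Bcl2l13, at 14.1 against 7.60 RPKM in control (means of 3). Bok and Bcl2l10 had no count in any library.

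Downstream of the mitochondria, 15 of 15 apoptosome and caspase genes were tested, 1 was higher and 0 lower, and the median log2 fold change was 0.16. Cycs, the gene of the cytochrome c that BAX and BAK pores release, was at 32.9, 30.1 and 28.3 CPM and 36.9, 35.1 and 45.8 CPM (log2 fold change 0.37, SE 0.13, edgeR exact test, adjusted p = 0.0440). Its groups were apart, with Rnmt cKO library 3 well above the others, but 11 of 16 alternatives lost the call, and the log2 fold change was 0.23 without that library (adjusted p = 0.161). It was also lost without control library 1 (0.0631), control library 2 (0.186), control library 3 (0.212) or Rnmt cKO library 1 (0.0665). Reads of Cycs may be shared with its pseudogenes, which makes its count uncertain. The genes of the list with the highest control CPM, which is not scaled to length, were Birc3 and Xiap. Neither was called (Birc3 log2 fold change 0.16, edgeR exact test, adjusted p = 0.255, and Xiap -0.12, adjusted p = 0.559).

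Of 10 death receptor genes, all tested, 0 were higher and 1 was lower (median log2 fold change 0.01). Fasl, the ligand of the Fas receptor, was at 11.3, 11.6 and 11.2 CPM in control and 6.01, 4.55 and 5.55 CPM in Rnmt cKO cells. The controls were nearly equal and every Rnmt cKO library was far below them, a fall in the mean of 52.9% (log2 fold change -1.09, SE 0.12, edgeR exact test, adjusted p = 9.75e-07), which passed in all 16 alternatives. Cflar, the gene of the caspase-8 inhibitor c-FLIP (log2 fold change 0.07, edgeR exact test, adjusted p = 0.766), and Casp8 (0.03, adjusted p = 0.911) were not called. Casp8 was the most abundant of the list per length, at 70.4 RPKM in control. In CPM Cflar was the highest, at 285 against 204 CPM of Casp8 (control means of 3).

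**Figure D4:**
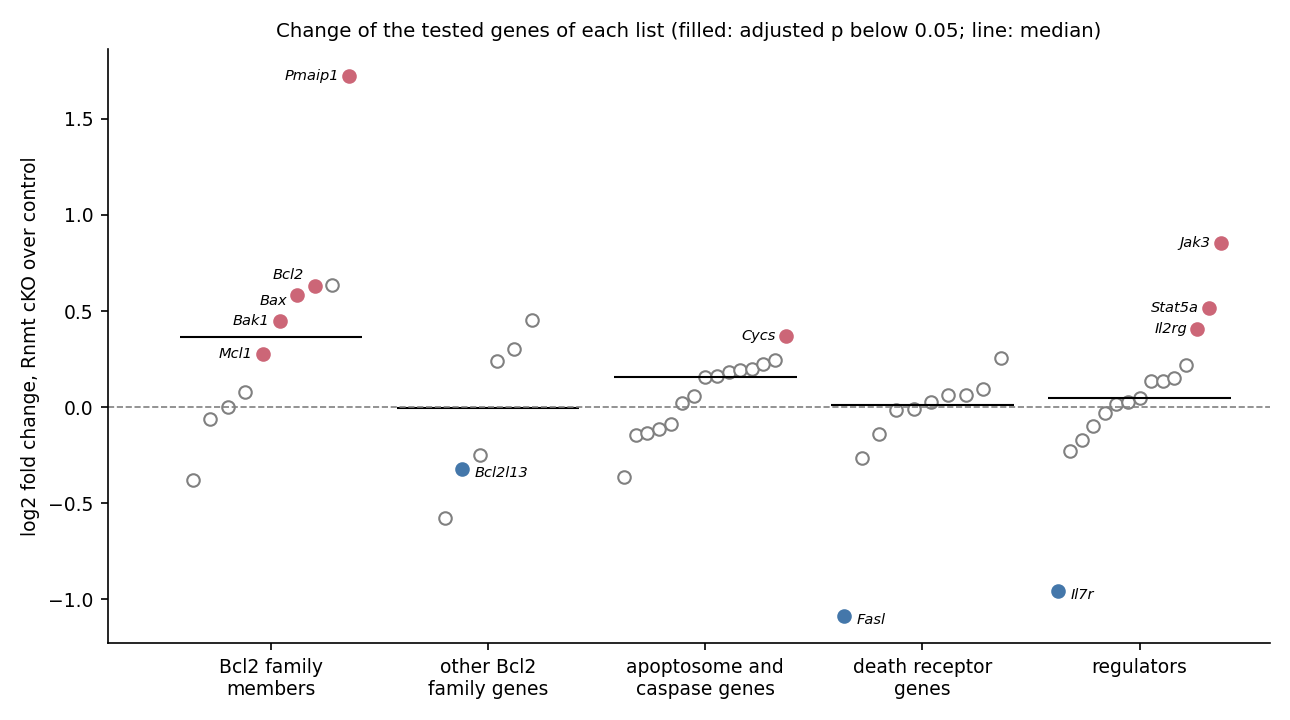
Log2 fold change of Rnmt cKO over control (vertical axis) for every tested gene of the members and of 4 other lists (horizontal axis), each point a gene. Red and blue points were called higher and lower by the edgeR exact test, open points were not called, and lines are list medians. Called higher were 5 of 10 members, and 0 of 6, 1 of 15, 0 of 10 and 3 of 15 genes of the other lists. Over all genes tested, 8.0% were called higher and 6.84% lower. Without Pmaip1, which passed the filter only through the Rnmt cKO libraries, 4 of 9 members were higher.

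Genes that regulate the family or its proteins included the interleukin-7 pathway, in which the receptor chains IL-7R and the common gamma chain signal through JAK1, JAK3 and STAT5 to maintain BCL2. Of 15 such genes, all tested, 3 were higher and 1 was lower (median log2 fold change 0.05), and all 4 calls were in that pathway. Il7r was at 380, 385 and 336 CPM in control and 203, 191 and 174 CPM in Rnmt cKO cells, so that each Rnmt cKO library was far below each control. Its mean fell by 48.5% (log2 fold change -0.96, SE 0.09, edgeR exact test, adjusted p = 2.44e-17). The other calls went up: Jak3 from 115, 117 and 115 CPM to 221, 218 and 189 CPM (log2 fold change 0.85, SE 0.07, adjusted p = 3.55e-16), Stat5a by 0.52 on the log2 scale (SE 0.07, adjusted p = 2.74e-06) and Il2rg, the common gamma chain, by 0.41 (SE 0.04, adjusted p = 0.000127). None of these groups overlapped, and all 4 called genes passed in 16 of 16 alternatives. Bcl2 thus rose and Il7r, the gene of a receptor upstream of it, fell in the same libraries. Stat5b, the other STAT5 gene and the more abundant one (264 CPM in control against 92.1 CPM of Stat5a, means of 3), was named after its values were seen and was not called. Its groups overlapped, with a log2 fold change of -0.10 (edgeR exact test, adjusted p = 0.586) that ran from -0.18 to 0.02 over the alternatives. Jak1 (log2 fold change 0.13, edgeR exact test, adjusted p = 0.464) and Huwe1 (0.02, adjusted p = 0.970), the gene of a ubiquitin ligase of MCL1, had the highest control CPM of the list and were not called. Per length Huwe1 was below Il7r, at 56.4 against 104 RPKM in control (means of 3). The genes of p53, FOXO1 and FOXO3, factors that drive BH3-only genes, were chosen for mention after their values were seen and were not called: log2 fold changes were -0.23 for Trp53, -0.17 for Foxo1 and 0.14 for Foxo3 (edgeR exact test, adjusted p = 0.0915, 0.256 and 0.384). The groups did not overlap for any of them, and Trp53 passed the threshold in 3 of 16 alternatives and Foxo1 and Foxo3 in 1 each.

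The genes whose profile over the 6 libraries was nearest to that of Bcl2, by the distance between log2 CPM centred on each gene's mean over 9700 genes of at least 5 CPM, were Cntrob (0.153), 9030617O03Rik (0.155) and Harbi1 (0.167). The median distance to Bcl2 was 0.851. Nearest to Bcl2l11 were Cluap1 (0.0425), Dctn6 (0.0483) and Dis3l2 (0.0576), against a median of 0.425. The first 3 had log2 fold changes of 0.61, 0.62 and 0.65, close to the 0.63 of Bcl2, while those of the latter 3 lay between -0.07 and -0.03. The distance spans both groups, so alike fold changes follow from how these genes were chosen.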

How the data were processed

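The authors aligned paired-end reads to mm10 with STAR 2.5.2b, using GENCODE vM12 basic gene models. For each library they deposited unnormalized counts of uniquely mapped fragments by gene, on either strand and on each strand. A further deposited table holds the authors' edgeR comparison, which was not used, and a normalized signal per sample. Multiplying the sense-strand counts by 1 constant per library gave 100% of the deposited signal values in each library (within 0.5 counts), so that column was used. Unassigned reads stayed out of library sizes. Symbols, lengths and coordinates came from GENCODE vM21, which held 46488 of the identifiers, and upstream sequences from RefSeq. Counts were TMM-scaled and tested with the exact test of edgeR 4.0.16 (R 4.3.3), two-sided, over genes above 1 CPM in 3 samples or more. Log2 fold changes compare Rnmt cKO with control, with SE from per-sample log2 CPM (prior count 2).

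The members and all gene lists were chosen with earlier results of these data known. Named genes were all 10 members, of each other list the called genes (up to 6) and the 2 with the highest control CPM, and the 3 genes nearest in profile to Bcl2 and to Bcl2l11. Alternatives were other scalings, filters on low counts, the quasi-likelihood test, DESeq2 1.42.0, counts of either strand, a covariate, a replicate block and leaving out each library. Same-group libraries differed beyond sampling noise (chi-square per degree of freedom 3.79 to 25.4). The script was tested on simulated data. A gene of the apoptosome and caspase list is not reported here.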

Additional observations from a re-analysis of the deposited data

How the results depend on the processing

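The calls of Bcl2, Bax, Fasl, Il7r, Jak3, Stat5a and Il2rg held in all 16 alternatives, and that of Pmaip1 in the 11 that tested it. Stricter filters and leaving out any Rnmt cKO library removed Pmaip1 from the test. The replicate numbers of the labels did not pair the libraries: deviations from the group means correlated at -0.21, -0.02 and -0.35 for numbers 1 to 3, and 0 of 6 libraries were closest to their own number. With the replicate block in a quasi-likelihood fit, 3 members were higher (Bcl2 adjusted p = 0.0180, Bax 0.0434, Pmaip1 0.0436), while Mcl1 (0.208) and Bak1 (0.127) missed the threshold, 0 other family genes were lower and 0 apoptosome and caspase genes were higher. Over all genes the block called 431 higher and 276 lower, against 987 and 844 without it. With library size scaling alone, Bcl2l11 (0.065) and Xiap (0.0071) turned positive, 0 other family genes were lower, and 4 apoptosome, 1 death receptor and 5 regulator genes were higher; all genes gave 1939 higher and 535 lower calls. The covariate gave 1 member lower (Bid), 3 apoptosome genes higher, 1 death receptor gene higher and 2 lower, 3 regulators lower and a log2 fold change of -0.0087 for Huwe1, with 1696 higher and 1466 lower calls over all genes. Without a filter on low counts 0 other family genes were lower and 0 apoptosome genes were higher. DESeq2's Wald test gave 0 and 0, with Bad at -0.013 and 702 of all genes higher, and DESeq2 size factors 0 apoptosome genes higher and Bad at -0.013. The quasi-likelihood test gave 0 apoptosome genes higher, and so did counts of either strand, with Bad at -0.064. A minimum of 10 CPM gave 2 regulators lower and 2 apoptosome genes higher, and a minimum of 1 CPM in all 6 libraries also gave 2 apoptosome genes higher.

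Leaving out 1 library at a time gave 3 to 4 members higher (3 without control 3, Rnmt cKO 1 or Rnmt cKO 2), 0 to 1 other family genes lower, 0 to 1 apoptosome genes higher (0 without control 1, 2 or 3 or Rnmt cKO 1), 1 to 2 death receptor genes lower and 1 to 2 regulators lower (2 in both without Rnmt cKO 3), and 3 to 4 regulators higher. Over all genes it gave 643 to 1221 higher and 547 to 1285 lower, most without Rnmt cKO 3. The log2 difference of Bcl2 to Bcl2l11 stayed between 0.64 and 0.74, that of Bcl2 to Bax ran from -0.059 (without Rnmt cKO 1) to 0.15, with -0.046 in the absence of control 1, and the difference in the other-strand share of Bcl2 from 0.196 to 0.313 percentage points. Signs turned for Bad (range -0.14 to 0.11, negative when control 3 or Rnmt cKO 3 was omitted), Casp8 (-0.014 to 0.055, negative when Rnmt cKO 1 was omitted) and Huwe1 (-0.036 to 0.085, positive when control 3 or Rnmt cKO 3 was omitted), none of which was called. The members' median was 0.49 with library size scaling, against 0.36 as reported. Without Rnmt cKO 3 Pmaip1 failed the filter and the median of the 9 members tested was 0.23. Without Pmaip1 the median as reported was 0.28. The causes of these shifts were not tested. Depth limits Pmaip1 (5 to 7 counts in controls) and the other-strand counts.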
